A study of Saccharomyces cerevisiae with 8 samples.

Results

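Budding yeast cells that lived on the pcf11-dNL allele were compared with wild-type cells after both had grown in caffeine. Pcf11 is a subunit of cleavage factor IA, which binds the nascent RNA and the C-terminal domain of RNA polymerase II, takes part both in cutting the transcript and in releasing the polymerase. An mRNA can end at one of several poly(A) sites, and an end inside the coding region gives a truncated RNA that lacks the stop codon. Caffeine inhibits the growth-promoting kinase complex TORC1 and stresses the yeast cell wall.

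The comparison comprised 3 of the 8 libraries of the series, chosen by genotype and medium from the labels: 2 of wild type in caffeine, from experiments 1 and 2, and 1 of pcf11-dNL in caffeine, from experiment 2. All 3 cultures were W303 derivatives labelled MAT alpha with ura3-1, trp1-delta, ade2-1 and his3-11,15 and a leu2 allele. In each, chromosomal PCF11 was replaced (pcf11-delta::TRP1), and a pRS325-LEU2 plasmid carried either V5-PCF11-MYC (wild type) or the tagged allele named deltaN-link in the labels (pcf11-dNL), so that copy number and expression of the allele were those of a plasmid. Cultures grew in YPAD, a rich glucose medium, at 30 °C, and were kept in 20 mM caffeine for 2 h before harvest. The same strains without caffeine gave 2 wild-type libraries and 1 pcf11-dNL library. Direct RNA sequencing read the poly(A) ends of total RNA without a cDNA step, and each gene has 4 deposited values per library: an estimated count, an average 3′ UTR length, a truncated fraction and a second, more promoter-near fraction called proximal here.

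The 3 caffeine libraries were of nearly equal depth, with total counts of 4413677 and 4410374 in the wild-type libraries of experiments 1 and 2, and 4555751 in the pcf11-dNL library. Without caffeine the corresponding totals were 1070278, 1631254 and 1071339. Wild type of experiment 1 stood apart from the others: URA3 and the 2-micron plasmid features took 11.4% of its caffeine counts, against 0.304% in wild type of experiment 2 and 0.406% in pcf11-dNL. URA3 was at 40850 CPM there, against 88.3 and 89.4 in the other 2 libraries (CPM are counts per 1e+06), although the labels give ura3-1 and name no plasmid with URA3. LEU2, the marker of the labelled plasmid, was at 126 CPM against 322 and 273, and SIR4, which adjoins PCF11, at 899 against 22.5 and 30.7. The library thus did not fully match its label, what else its culture carried is not given, and the part of this in the values of experiment 1, the level of PCF11 included, was not tested. Values of the wild-type libraries are therefore given one by one, experiment 1 first. The alpha-factor gene MF(ALPHA)1 was at 274 and 129 CPM in the wild-type libraries and 149 in pcf11-dNL, and the a-factor gene MFA2 at 11.4, 25.2 and 15.8 CPM. Of other alpha-specific genes, STE3 was at 169, 116 and 135 CPM and SAG1 at 177, 132 and 183. MF(ALPHA)2 was at 35.1, 24.8 and 32.2. Of other a-specific genes, STE2 was at 63.1, 68.3 and 63.5 CPM and MFA1 at 59.3, 79.5 and 73.4. STE6 was at 47.7, 50.7 and 41.6, BAR1 at 37.6, 56.5 and 56.1, and AGA2 at 3.53, 4.05 and 5.68. STE2, MFA1, STE6 and BAR1 thus lay above MF(ALPHA)2, and the markers did not all follow the label. The labels do not say whether libraries came from separate cultures beyond the experiment numbers, so p-values cover the spread among these libraries alone, part of which may be technical. With 1 library against 2, an exact permutation test of a single value cannot go below 0.333, and in the fits across genes the single pcf11-dNL library was assumed to vary as the wild-type pairs did. CPM are shares of a library, so a change in the total RNA of a cell cannot be seen. The share of a gene can also fall because those of others rise.

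The RNA of PCF11 itself (YDR228C, chromosome IV, 921926 to 923806, minus strand) was about equal in both strains. It stood at 133.5 CPM in wild type of experiment 1, 110.6 in experiment 2 and 110.4 in pcf11-dNL. The pcf11-dNL value lay just under the lower wild-type value, and the log2 difference was -0.14 ± 0.38 (SE; edgeR adjusted p = 1). With the experiment as a block it turned to 0.144. A count of 3′ ends does not check which allele a culture carried. Of the ends of PCF11 RNA, 26.3% and 25.2% were truncated in wild type and 20.7% in pcf11-dNL.

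Expression differed little between pcf11-dNL and wild type in caffeine. Of 5849 genes tested with edgeR's quasi-likelihood test, 0 passed an adjusted p of 0.05 (0%), and DESeq2 also called 0. Before adjustment, 50 genes were under 0.05 with edgeR (0.855%), of which 45 were higher (0.769%) and 5 lower (0.0855%) in pcf11-dNL, and 18 with DESeq2. The standard deviation over genes of the log2 difference in CPM was 0.42 between pcf11-dNL and wild type of experiment 1 and 0.27 between pcf11-dNL and wild type of experiment 2. Between the 2 wild-type libraries it was 0.46, so that pcf11-dNL was nearer to the wild-type library of its own experiment than the wild-type libraries were to each other. Without caffeine the corresponding values were 0.60, 0.53 and 0.58.

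**Figure D1:**
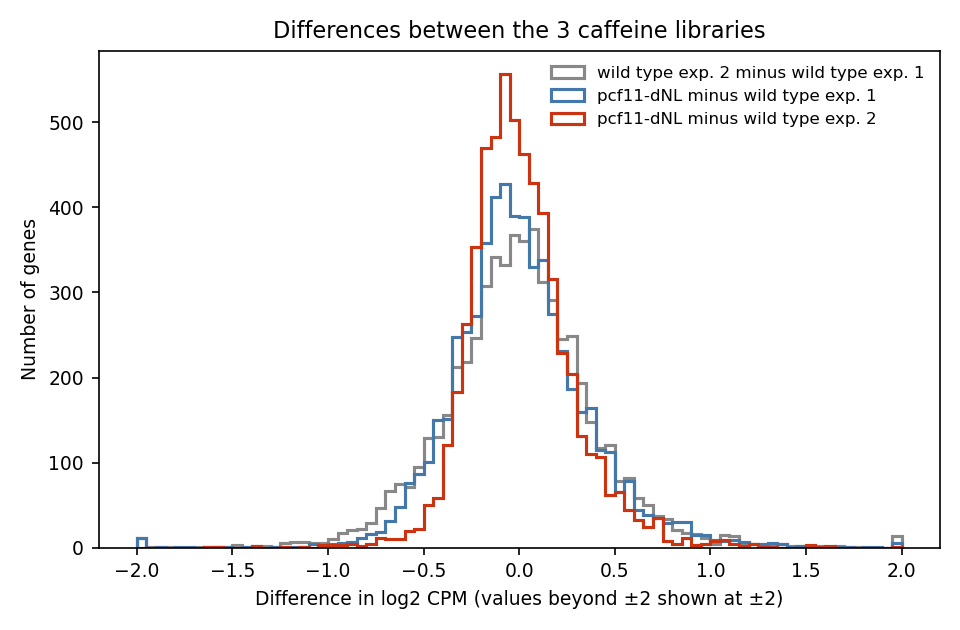
Histogram over 5849 genes of the difference in log2 CPM (x axis, bins of 0.05) between pairs of the 3 caffeine libraries, with the number of genes on the y axis. The distribution of pcf11-dNL minus wild type of experiment 2 is the narrowest (SD 0.27), and that between the 2 wild-type libraries the widest (SD 0.46).

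A gene was called above or below wild type, as a description, where the pcf11-dNL library lay outside both wild-type libraries. This held for 1451 genes above (24.8%) and 1837 below (31.4%). Both shares depended on level. In 4 bins by mean CPM, from low to high, 37.7%, 23.6%, 23.6% and 14.4% of genes lay above both. Below both lay 23.5%, 32%, 33.4% and 36.7%. The gene lists described later were not matched for level. At least 1.5-fold outside both were 59 genes above (1.01%) and 6 below (0.103%), and at least 2-fold 6 above and 0 below. The genes named next are the 10 above and 10 below with the largest distance from the nearer wild-type library where counts averaged 50 or more. None passed the test, with an adjusted p of 1 for each in edgeR.

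YBR284W (chromosome II, 771239 to 773632, plus strand), whose product resembles AMP deaminases, lay farthest above. Its level was 116.6 and 93.3 CPM in wild type and 267.9 CPM in pcf11-dNL. The wild-type libraries were close to each other and the pcf11-dNL value lay well above both, with a log2 difference of 1.35 ± 0.27 and an unadjusted edgeR p of 0.00097. Without caffeine the 3 levels were 26.8, 19.6 and 33.6 CPM. Most of the higher level in caffeine was truncated RNA (fraction times CPM), at 90.0 and 53.2 CPM in wild type and 224.2 in pcf11-dNL. The remaining RNA, which reached the 3′ UTR, was at 26.6 and 40.1 CPM in wild type and 43.8 in pcf11-dNL, close to experiment 2.

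Small and poorly characterized genes came next. YOR032W-A was at 16.4 and 17.3 CPM in wild type and 38.5 in pcf11-dNL (log2 difference 1.19 ± 0.30). BSC5, named for readthrough of its stop codon, was at 39.4 and 38.7 CPM in wild type and 83.3 in pcf11-dNL (1.09 ± 0.28). BSC5 was also higher in the pcf11-dNL library without caffeine, at 52.3 CPM against 20.8 and 12.4. YPL257W, an uncharacterized gene, was at 125 and 109 CPM against 228 in pcf11-dNL. TAR1 (93.9 and 114.7 CPM against 227.8) lies antisense within the repeated ribosomal DNA, so its count is uncertain.

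Among genes of known function, POT1, the thiolase of peroxisomal fatty acid oxidation, was at 10.6 and 9.01 CPM in wild type and 20.2 in pcf11-dNL. OSI1, a gene induced by oxidative stress, was at 66.4 and 60.8 CPM against 123 (log2 difference 0.95 ± 0.24). The eisosome gene SEG2 was at 122.9 and 192.4 CPM against 343.4 (1.12 ± 0.30). In these genes the wild-type libraries lay together, SEG2 excepted, and pcf11-dNL lay above. NRK1, a nicotinamide riboside kinase, and the acetyltransferase gene HPA2 were at 19.3 and 25.7 CPM in pcf11-dNL, each less than 2-fold above its higher wild-type library.

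Below wild type, AQR1, a plasma membrane exporter of drugs and short-chain acids, stood at 60.3 and 55.9 CPM in wild type and 29.0 in pcf11-dNL, 1.90-fold below the nearer wild-type library. FUR1, which salvages uracil, stood at 119.4 and 73.4 CPM against 43.3 (-1.15 ± 0.45). Both groups were apart, but for FUR1 the wild-type libraries also differed from each other. The same held for 3 further genes. The pheromone-regulated gene PRM7 was at 151.5 and 51.1 CPM against 31.8 (-1.67 ± 0.81), the copper transporter gene CTR1 at 225 and 89.9 against 61.2 (-1.36 ± 0.61), and the phosphate transporter gene PHO84 at 121.4 and 69.4 against 47.1 (-1.02 ± 0.47). Without the wild-type caffeine library of experiment 2, PRM7 (-2.25, edgeR adjusted p = 0.000627) and CTR1 (-1.88, 0.0115) passed, since the comparison was then with the library of experiment 1 alone.

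ENO2, the major enolase gene, has the highest level of these 20 genes, at 3755 and 4235 CPM in wild type and 2585 in pcf11-dNL (-0.63 ± 0.73). FET4, a low-affinity iron transporter gene, was at 192 and 203 CPM against 136. EMC10, of the complex that inserts proteins into the endoplasmic reticulum membrane, was at 88.4 and 88.5 CPM against 59.1, with SDL1 (134.3 and 129.1 against 89.8) and YMR247W-A (17.2 and 11.7 against 6.73) completing the set. For ENO2, FET4, EMC10 and SDL1 the wild-type libraries were close together and pcf11-dNL lay below both.

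**Figure D2:**
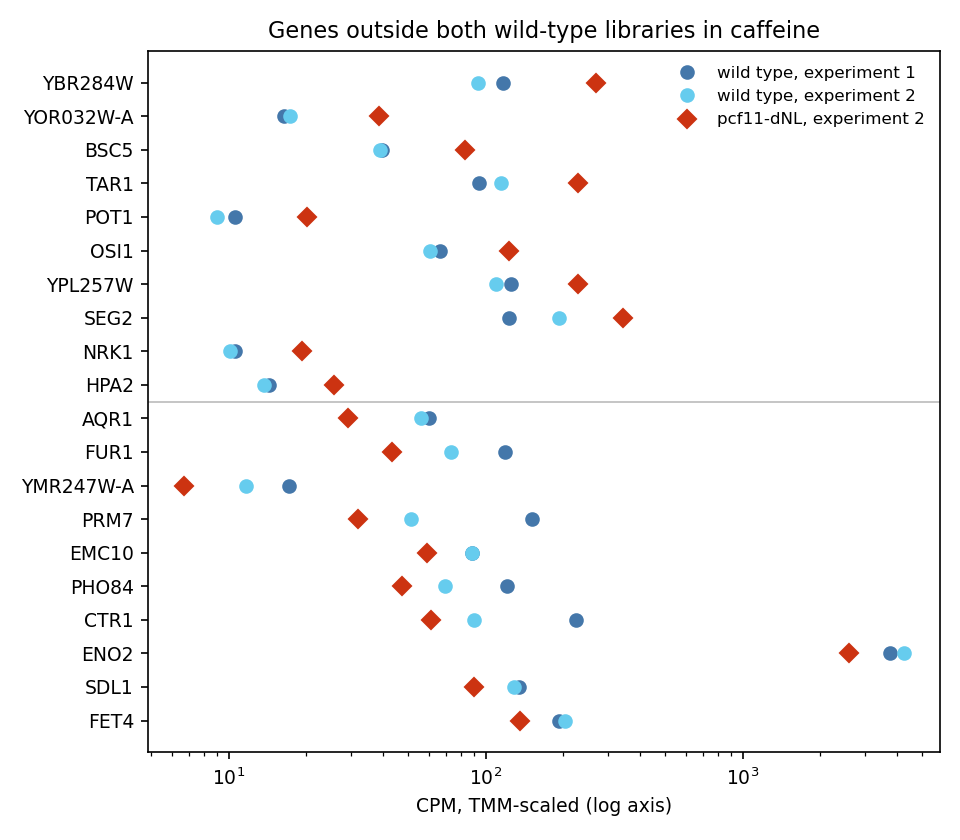
Level of the 10 genes farthest above (upper block) and the 10 farthest below (lower block) both wild-type libraries in caffeine. The x axis is TMM-scaled CPM on a log axis, and each point is 1 library. In every row the pcf11-dNL diamond lies outside both wild-type circles, by which rule the genes were chosen. For YBR284W it is at 267.9 CPM against 116.6 and 93.3.

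Genes that make and stop mRNA 3′ ends were described first among the gene lists. Of the 5 cleavage factor I genes, 0 passed the test, 2 lay above and 3 below both wild-type libraries, and the median log2 difference was -0.10 against -0.03 over all genes. HRP1, which binds the TATATA-type efficiency element in the 3′ UTR, was at 544.8 and 713.2 CPM in wild type and 918.2 in pcf11-dNL (log2 difference 0.55 ± 0.35, adjusted p = 1). Truncated HRP1 RNA was at 443.1 and 549.9 CPM in wild type and 772.8 in pcf11-dNL. The remaining HRP1 RNA was at 101.7 and 163.3 CPM against 145.3, between the wild-type values. RNA15, which binds the A-rich positioning element, was at 96.9 and 80.2 CPM against 116.7. CLP1, the direct partner of Pcf11, was at 70.7 and 77.7 CPM against 58.0, and RNA14, the scaffold, at 173.2 and 177.1 against 163. The ranges of the total level in wild type and pcf11-dNL did not overlap for these 4 genes. The same held for 24.8% of all genes above and 31.4% below, and each difference was under 2 of its SE.

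The same shares over all genes, 24.8% and 31.4%, stand beside the counts that follow. Of 15 genes of the cleavage and polyadenylation factor, 4 lay above and 5 below both wild-type libraries, 0 passed, and the median was -0.0031. REF2 was at 120.4 and 116.5 CPM against 139.8, and YSH1, the endonuclease that cuts the RNA, at 54.5 and 64.2 against 48.8. Of 13 genes of the Nrd1 pathway and of exonuclease ("torpedo") termination, 8 lay above and 4 below, with a median of 0.10 and 0 passing. NAB2, a poly(A)-binding protein that limits tail length, was at 44.9 and 53.4 CPM in wild type and 74.4 in pcf11-dNL (0.60 ± 0.25, unadjusted p = 0.0447). PAB1, the main cytoplasmic poly(A)-binding protein gene, was at 235.5 and 175.5 CPM against 142.2. SEN1, the helicase that dissolves early-terminated complexes, was at 89.4 and 73.7 CPM against 102.6, and NRD1 at 40.9 and 32.4 against 47.9. Of 16 transcription elongation genes, 4 lay above and 7 below. RPB4, a polymerase II subunit, was at 96.2 and 94.2 CPM against 136.9 in pcf11-dNL, and YRA1, an mRNA export factor, at 246.1 and 248.2 against 187.8.

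Glycolysis and fermentation genes lay lower in pcf11-dNL as a list. Of 17 genes, 14 lay below both wild-type libraries and 0 above, where 31.4% of all genes lay below, and 0 passed the test. In the bin of genes with the highest level, 36.7% lay below. The median log2 difference was -0.365, and it was -0.389 against wild type of experiment 1 and -0.352 against experiment 2. Besides ENO2, the dehydrogenase gene TDH2 was at 838.4 and 917.3 CPM against 637, and the main alcohol dehydrogenase gene ADH1 at 2087 and 1582 against 1212. PGK1, phosphoglycerate kinase, was at 889.1 CPM in wild type of experiment 1, 245.1 in experiment 2 and 183 in pcf11-dNL. The value of experiment 1 stood far from both others, and without the wild-type caffeine library of experiment 2 PGK1 passed (-2.28, edgeR adjusted p = 0.0179). TDH2 and ENO2 have close paralogs, so that their counts are uncertain. In the libraries without caffeine the list's median was 0.07 against experiment 2 and 0.472 against experiment 1.

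For the mitochondrial ribosome and the proteasome, more genes lay below than above both wild-type libraries, while the cytosolic ribosome depended on the wild-type library. The counts are read against 31.4% below and 24.8% above over all genes, shares that do not allow for level. Of 69 mitochondrial ribosomal protein genes, 43 lay below and 4 above both wild-type libraries (median -0.152; -0.206 and -0.107 against experiments 1 and 2). MRPS9 was at 119.9 and 109 CPM against 78.7, and MRP20 went the other way, at 18.7 and 17.6 against 32.0. Of 34 proteasome genes, 21 lay below and 2 above (median -0.103), such as RPN5 with 302.4 and 324.8 CPM against 261. For 138 genes taken by symbol as cytosolic ribosomal protein genes, 20 lay below and 2 above, both smaller shares than over all genes. The 20 include RPP1 (YHR062C), which is not a ribosomal protein gene. The sign of the list's median hung on the wild-type library, at -0.434 against experiment 1 and 0.107 against experiment 2. Ribosome biogenesis genes did likewise (36 of 89 below, 2 above; -0.356 and 0.021). UTP5, of the small-subunit processome, stood apart from that list at 62.1 and 67.1 CPM in wild type and 102.4 in pcf11-dNL. Truncated UTP5 RNA was at 26.7 and 22.0 CPM against 52.8, and the remaining UTP5 RNA at 35.4 and 45.1 against 49.6. None of these genes passed the test.

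Several other lists had more genes above than below both wild-type libraries, where the shares over all genes were 24.8% above and 31.4% below. In the bin of genes with the lowest level 37.7% lay above and 23.5% below, and the part of level in these lists was not tested. For the glyoxylate cycle and peroxisomal oxidation, 9 of 17 genes lay above and 2 below (median 0.20), with SFC1, a mitochondrial carrier, at 11.6 and 15.8 CPM against 22.3 and YAT1, a carnitine acetyltransferase, at 132.5 and 116.5 against 164.2. For vitamin B6 and thiamine, 8 of 14 lay above and 1 below (0.121), and THI20 was at 25.7 and 27.9 CPM against 39.1. For pleiotropic drug resistance, 6 of 11 lay above and 0 below (0.134), and the ABC transporter gene PDR15 was at 88.1 and 98.7 CPM against 117.3. Among single genes of other lists, SER3, the first enzyme of serine synthesis, was at 330.2 and 271.4 CPM against 552.9 in pcf11-dNL, and the sulfate permease gene SUL1 at 72.5 and 79.3 against 115.5. For SER3 most of that difference was truncated RNA, at 195.7 and 159.5 CPM in wild type against 411.1. Its remaining RNA was at 134.5 and 111.9 CPM against 141.8. Across all 36 lists 15 medians lay above 0 and 21 below. Against wild type of experiment 1 alone 22 lay above 0, and against experiment 2 alone 13, and the TOR pathway list, the pathway that caffeine acts on, had medians of 0.0771 and -0.105 in the same order.

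**Figure D3:**
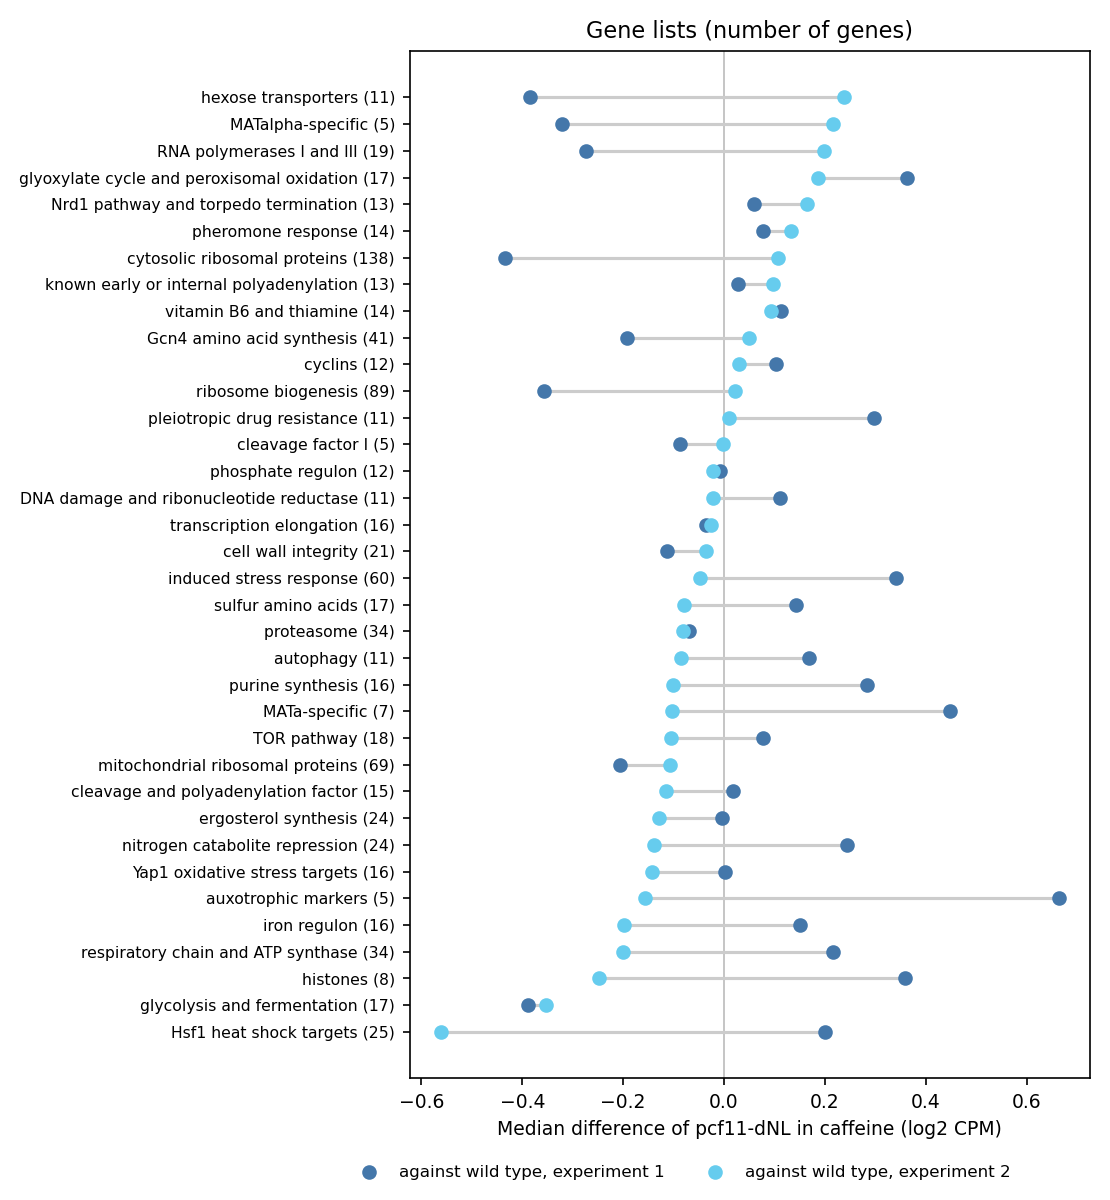
Median difference in log2 CPM of pcf11-dNL in caffeine from wild type of experiment 1 (dark points) and experiment 2 (light points), for 36 gene lists with the number of genes tested in brackets. The list of glycolysis and fermentation lies at -0.389 and -0.352, while for cytosolic ribosomal proteins the points fall on both sides of 0 (-0.434 and 0.107).

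Of the 36 lists, stress genes had the median difference between media farthest from 0 (-0.935 on the log2 scale). The 60 genes of the induced environmental stress response had a median of 0.0976 in caffeine (0.341 against experiment 1 and -0.0484 against experiment 2). Of them, 21 lay above and 8 below both wild-type libraries, beside 24.8% above and 31.4% below over all genes. Without caffeine the pcf11-dNL library lay above wild type by a median of 1.28 and 0.973 in the same order. For the 25 heat shock targets of Hsf1 the caffeine medians were 0.201 and -0.562 and those without caffeine 0.877 and 0.452. The difference between media was tested gene by gene as the pcf11-dNL effect in caffeine minus that without it. With edgeR 0 of 5849 genes passed (128 under 0.05 before adjustment, 2.19%, with 34 higher, 0.581%, and 94 lower, 1.61%), while DESeq2 called 3, all lower: EGO4, GLK1 and RGI1, which are named because that count is small and were chosen after their values were seen.

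EGO4 was at 38.7 and 46.4 CPM in wild type without caffeine and at 492.8 in pcf11-dNL, and at 42.4, 47.1 and 55.1 with it. The high pcf11-dNL level was thus found in the medium without caffeine, and the difference between media was -3.22 ± 0.39 on the log2 scale (edgeR adjusted p = 0.178). The glucokinase gene GLK1 went from 202.4, 232.6 and 1463 CPM without caffeine to 603.6, 712.3 and 698.8 with it. RGI1, a gene of respiratory growth, went from 177.6, 324 and 1565 CPM to 196.1, 235.9 and 205.7.

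The second measure was the average length of the 3′ UTR, the distance from the stop codon to the mean poly(A) end. A small shift toward longer values was seen. The median over 5165 genes was 132.6 and 132.4 nt in wild type and 134.1 nt in pcf11-dNL, and 1847 genes (35.8%) were longer than in both wild-type libraries and 1151 (22.3%) shorter. The median difference was 0.41 nt from experiment 1 and 0.708 nt from experiment 2, against 3.21 and 3.60 nt without caffeine. None passed limma's test (0%), while 135 were under 0.05 before adjustment (2.61%), 103 longer (1.99%) and 32 shorter (0.62%). The difference between media gave 0 calls, with 364 genes under 0.05 before adjustment (7.05%), 75 higher (1.45%) and 289 lower (5.6%). Of the 15 cleavage and polyadenylation factor genes, 8 had longer and 1 had shorter values, beside 35.8% and 22.3% of all genes. Other lists had a like share, such as transcription elongation with 8 of 15 longer and 3 shorter. Of 5 cleavage factor I genes 1 was longer and 1 shorter, and of 13 termination genes 5 were longer and 4 shorter. NAB2 RNA was 214.8 and 211.4 nt in wild type and 246.2 nt in pcf11-dNL (difference 33.07 ± 10.03 nt, limma adjusted p = 1).

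The 6 genes with the largest gain all have a neighbour that runs toward them on the opposite strand. Their mean ends in pcf11-dNL fell inside that neighbour, as they also did in wild type except for NUP120. Of the genes with a length, 2805 share this arrangement and 2328 have a downstream neighbour on the same strand. Longer than in both wild-type libraries were 37.3% of the former and 34% of the latter. Among the 6 genes with the largest loss, YLR285C-A, BUD25 and SET6 also have an opposite-strand neighbour. Their mean ends fell inside it in all 3 libraries, though little of their RNA reached the 3′ UTR. The mean end is an average and not itself a poly(A) site, and the ends were taken as the authors assigned them. The sequences below hold TATATA, the strong form of the efficiency element that Hrp1 binds. In each it is the only one in the 900 bases after the stop codon, so it is the last before the mean end in both strains. Where along the RNA the ends moved cannot be read from a mean. They were read from the RefSeq R64 genome on the gene's strand, with TATATA in capitals (searched on that strand only). For MRPS28 and YJR112W-A none was found within 900 bases.
ABF1 (chrXI:228836-228865, plus strand): tttctattgaaaTATATAttatatcttatg
MRPL27 (chrII:768860-768889, plus strand): aaagttcgtacgTATATAaatgcgcgtagc
CST9 (chrXII:909482-909511, plus strand): cttatgtgttacTATATAtggtattatttt
NUP120 (chrXI:330826-330855, minus strand): tgaaTATATAaactgtaaattaatacttca
Of 5153 genes, 58.4% hold TATATA in the 300 bases after the stop codon, so its presence is common. A match is a description and no measured binding site.

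ABF1, a general regulatory factor that binds many promoters (chromosome XI, 226570 to 228765), had the most even wild-type values. They were 221.1 and 213.4 nt, against 329.6 nt in pcf11-dNL, a difference of 112.3 ± 4.75 nt (limma adjusted p = 0.779). Its element begins 83 bases after the stop codon, and its last base lies 129 nt before the mean wild-type end and 242 nt before that of pcf11-dNL. Without caffeine ABF1 was shorter in pcf11-dNL than in wild type, at 130.1 nt against 158.7 and 159.9.

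MRPL27, a mitochondrial ribosomal protein gene (chromosome II, 768240 to 768680), was at 399.5 and 382.1 nt in wild type and 525.4 nt in pcf11-dNL (134.6 ± 9.1 nt, limma adjusted p = 1). Its downstream neighbour on the opposite strand is SSH1, and the gene after that is YBR284W, the gene whose level lay farthest above wild type. SSH1, which encodes a subunit of a protein translocation channel, was at 169.9 and 164.9 CPM in wild type and 123 in pcf11-dNL (log2 difference -0.44 ± 0.28). MRPL27 and YBR284W were chosen for lying outside both wild-type libraries, in length and in level. SSH1 lay below both in level, as did 31.4% of all genes. Without caffeine MRPL27 was much shorter in all 3 libraries, at 124.1, 125.3 and 156.8 nt, and pcf11-dNL was again the longest.

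Wild-type libraries differed more for the remaining genes. NUP120, of the nuclear pore, was at 97.5 and 256.4 nt in wild type and 398.4 nt in pcf11-dNL, and MRPS28, also of the mitochondrial ribosome, at 351.2 and 479.8 against 603.2 nt. CST9, a meiotic gene, was at 337.1 and 371.9 nt against 482.7, and YJR112W-A at 419.6 and 441.9 against 550.5. In all 6 genes pcf11-dNL was the longest, by which rule they were chosen, and the distance to the nearer wild-type library was 108 to 142 nt. The genes with the largest loss were YLR285C-A (669.1 and 605.8 nt against 425.5), the ammonium transporter gene ATO2 (600 and 548.1 against 462.8), BUD25 (276.4 and 245.7 against 164), the cyclin gene PCL1 (452 and 384.9 against 310.7), SET6 (421.7 and 456.7 against 351.6) and FKS3 (200.2 and 146.6 against 79.9). Their differences had an SE of 22.0 to 155 nt and an adjusted p of 1 in limma. Most RNA of FKS3, SET6, BUD25 and YLR285C-A was truncated. The RNA that reached the 3′ UTR was at 1.09 and 0.673 CPM in wild type against 1.37 in pcf11-dNL for FKS3. For SET6 it was at 2.2 and 1.6 CPM against 1.9, and for BUD25 at 3.02 and 2.71 against 3.37. For YLR285C-A it was at 6.56 and 3.16 CPM against 3.16. The count minimum was set on all reads of a gene, so these mean lengths may rest on few reads.

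**Figure D4:**
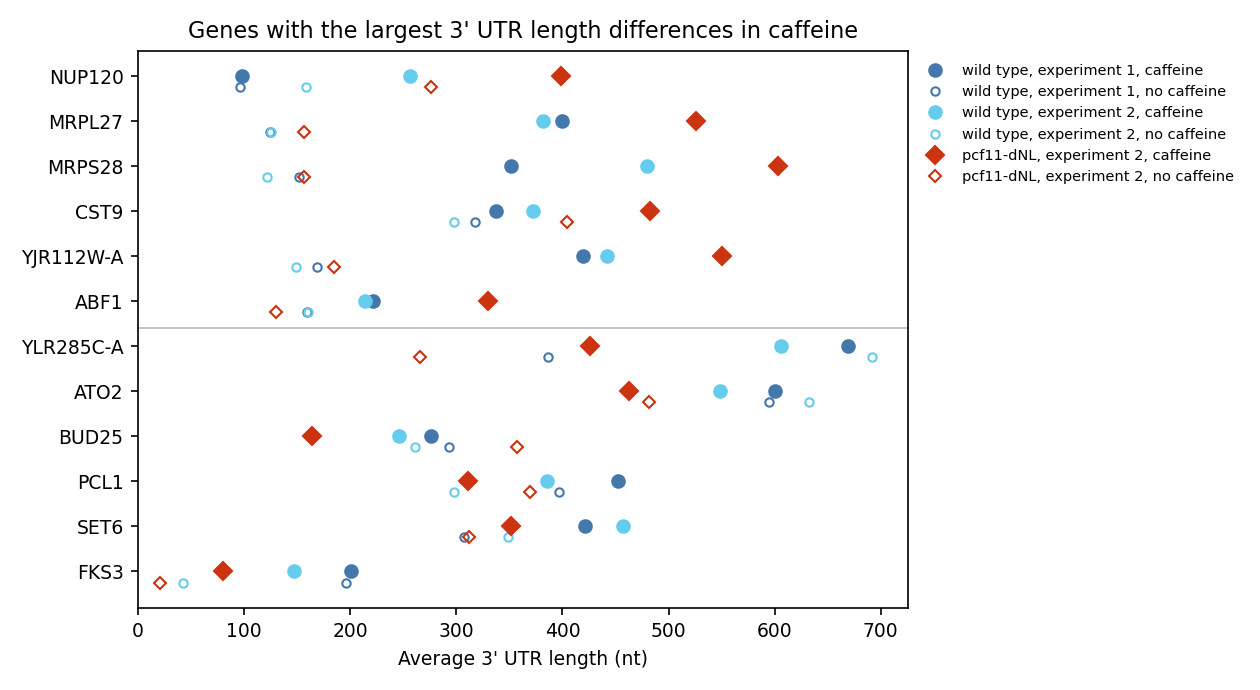
Average 3′ UTR length in nt (x axis) of the 6 genes that were longer (upper block) and the 6 that were shorter (lower block) than in both wild-type libraries in caffeine by the largest distance, with 1 point per library. Filled points are caffeine and open points no caffeine. For FKS3, SET6, BUD25 and YLR285C-A little RNA reached the 3′ UTR in caffeine, so their filled points may rest on few reads. ABF1 is at 329.6 nt in pcf11-dNL in caffeine and at 213.4 to 221.1 nt in wild type, while its open diamond lies left of both open circles.

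Truncated RNAs made up a larger share in pcf11-dNL, the broadest shift among the measures. The median truncated fraction over 5167 genes was 5.30% and 4.57% in wild type and 6.16% in pcf11-dNL, and 2574 genes (49.8%) had a higher value than both wild-type libraries against 719 (13.9%) with a lower one. Weighted by counts over all genes, 10.1%, 8.42% and 10.9% of the ends were truncated. The first of these shares includes URA3 and CYC1, with 14530 and 2005 CPM of truncated RNA in wild type of experiment 1. In experiment 2 they had 2.77 and 2.25 CPM, and in pcf11-dNL 3.70 and 2.73. A weighted share without them was not computed, so the weighted gap from experiment 1 is uncertain. Gene by gene, the gap was larger against experiment 2, with a median difference of 0.916 percentage points and 74.7% of genes higher. Against experiment 1 it was 0.314 points and 61.1%. The 2 wild-type libraries differed from each other by a median of 0.341 points. No gene passed limma's test (0%), nor edgeR on class counts, and 204 were under 0.05 before adjustment (3.95%), 194 higher (3.75%) and 10 lower (0.194%). Without caffeine the medians were 8.73% and 6.03% in wild type and 7.98% in pcf11-dNL, which lay between them. The difference between media gave 0 calls, with 283 genes under 0.05 before adjustment (5.48%), 133 higher (2.57%) and 150 lower (2.9%).

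**Figure D5:**
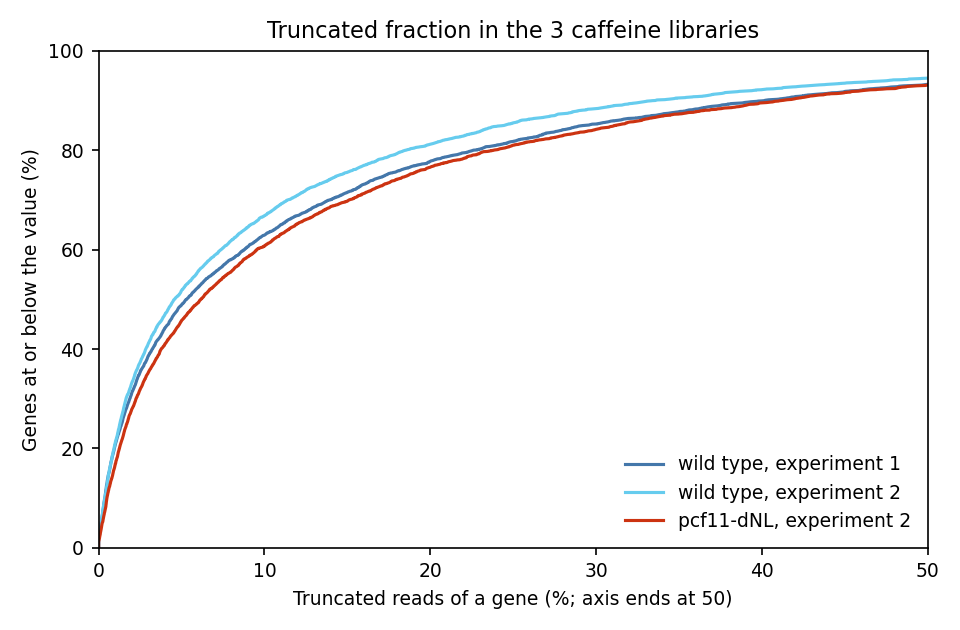
Cumulative share of 5167 genes (y axis, percent) at or below a given truncated fraction (x axis, percent of a gene's reads, drawn to 50) in the 3 caffeine libraries. The pcf11-dNL curve runs lowest over most of the range, with its median at 6.16% against 5.30% and 4.57% in wild type.

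The shift was larger in genes with longer coding regions. With the genes in 4 bins of nearly equal number, from short to long, the median difference from the wild-type mean was 0.198, 0.456, 0.743 and 1.70 percentage points. The share of genes below both wild-type libraries was 19.5% in the first bin and 8.46% in the last, while the share above both was between 48.4% and 51.2% in each. Other properties moved with it too. In 4 bins by the mean truncated fraction the median difference was 0.117, 0.571, 1.51 and 3.35 points, and in 4 bins by level, from low to high, 0.942, 0.73, 0.657 and 0.288 points. These are descriptions over genes of the same 3 libraries, and the part of each property was not tested.

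The 6 genes with the largest gain lay 17.6 to 20.9 points above the nearer wild-type library. DFG10, a reductase of dolichol synthesis, had the most even wild-type values, at 24.68% and 24.98%, against 44.1% (95% Wilson interval 39.2% to 49.2%, which covers counting error only). The difference was 19.2 ± 1.11 points (limma adjusted p = 0.745), and pcf11-dNL was also higher without caffeine, at 33.9% against 16.8% and 15.1%. ANR2 was at 15.4% and 14.5% in wild type and 36.2% in pcf11-dNL (31% to 41.9%), COQ4, of coenzyme Q synthesis, at 22.8% and 22.0% against 42.6% (37% to 48.6%). LTE1, a regulator of mitotic exit, ROG3, an arrestin-like adaptor, and SWD1, of the histone methyltransferase complex COMPASS, were at 46.2%, 62.2% and 63.6% in pcf11-dNL and at 20.5% to 45.9% in wild type. In each of the 6 genes the wild-type libraries were nearer to each other than pcf11-dNL was to either.

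Levels of truncated and remaining RNA can be set apart by multiplying the fraction with the CPM. ANR2 had 7.06 and 6.20 CPM of truncated RNA in wild type and 22.5 in pcf11-dNL, with 38.9, 36.6 and 39.6 CPM of RNA that reached the 3′ UTR. DFG10 had 17.2 and 15.4 CPM truncated against 34.7, with 52.5, 46.3 and 44.0 CPM remaining. In both genes it was the truncated part that was larger in pcf11-dNL.

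Lower truncated fractions were found for MCM22, of the kinetochore (51.1% and 51.5% in wild type, 30.7% in pcf11-dNL), the histone deacetylase gene HOS3 (48.3% and 52.5%, 30.1%) and CAX4, of dolichol recycling (67.4% and 68.2%, 51.1%). PRM3, of nuclear fusion, ECM27 and RAP1, which binds telomeres and ribosomal protein gene promoters, were at 32.7%, 23.2% and 20.8% in pcf11-dNL. RAP1 was at 47.1% and 31.8% in wild type, so that its wild-type libraries differed by more than the distance of pcf11-dNL from the nearer one. The SE of these 6 differences was 3.75 to 14.7 points.

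Several 3′ end factors were among the genes with more truncated ends. SEN1 had 48.5% and 55.2% truncated reads in wild type and 69.0% in pcf11-dNL (64.6% to 72.8%), a difference of 17.1 ± 3.66 points (limma adjusted p = 1). In CPM, truncated SEN1 RNA was 43.4 and 40.7 in wild type and 70.8 in pcf11-dNL, and the remaining RNA 46.0, 33.0 and 31.8, so the higher total of SEN1 came with more truncated and no more full-length RNA. PAP1, the poly(A) polymerase, was at 3.67% and 4.48% in wild type and 15.7% in pcf11-dNL (10.7% to 22.1%, from 24 of 154 reads). HRP1, whose RNA was mostly truncated in every library, was at 81.3% and 77.1% against 84.2%. RNA14, known for an RNA that ends inside its coding region, was at 85.3% and 72.9% against 85.1%, between the wild-type values. Of the 5, 15 and 13 genes of cleavage factor I, the cleavage and polyadenylation factor and the termination list, 2, 7 and 5 were above both wild-type libraries, no larger a share than the 49.8% of all genes.

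Genes with known early or internal ends went no single way. DEF1, which acts when polymerase II stalls, was at 20.8% and 27.6% in wild type and 28.7% in pcf11-dNL, and its level was 215.3 and 154.3 CPM against 242.7. The nucleotide synthesis genes IMD2 (9.21% and 11.2% against 8.34%), URA2 (17.7% and 9.81% against 11.6%) and URA8 (3.33% and 2.41% against 3.26%) are controlled by early termination. CBP1 was at 60.1% and 47.0% against 59.2%, SIR1 at 52.5% and 37.0% against 40.2% and AEP2 at 24.8% and 16.7% against 24.1%. Of the 13 genes on this list, 4 lay above and 2 below both wild-type libraries, beside 49.8% above and 13.9% below over all genes. The share above was thus smaller than over all genes.

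The last measure, the proximal fraction, counts ends that lie nearer to the promoter and is never larger than the truncated fraction. Its median was 0.368% and 0.382% in wild type and 0.479% in pcf11-dNL. Above both wild-type libraries were 2028 of 5167 genes (39.2%) and below both 1359 (26.3%). With limma 2 genes rose (0.0387%) and 0 fell, and 515 were under 0.05 before adjustment (9.97%), 425 higher (8.23%) and 90 lower (1.74%). DPH2, of diphthamide synthesis, rose from 3.68% and 3.65% in wild type to 8.73% in pcf11-dNL (difference 5.06 ± 0.0383 points, limma adjusted p = 0.0379). YCR087C-A had 0 whole reads in wild type, which allows a share of up to 1.55% and 1.59%, and stood at 3.68% in pcf11-dNL (adjusted p = 0.0379).

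Both calls rested on small numbers of reads. DPH2 had 9, 8 and 28 proximal reads in the 3 libraries, with intervals of 1.95% to 6.86%, 1.86% to 7.04% and 6.1% to 12.3%, and YCR087C-A had 8 in pcf11-dNL. The SE of DPH2 is far smaller than its counting intervals, and it comes from the spread of the wild-type pairs. With the experiment as a block 0 genes were called, as without any one of the wild-type libraries, and edgeR on rebuilt class counts called 0.

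Larger differences were seen in genes that did not pass. ACS1, an acetyl-CoA synthetase, was at 8.28% and 8.51% in wild type and 24.3% in pcf11-dNL (20.8% to 28.2%, 124 of 510 reads), a difference of 15.9 ± 0.671 points (limma adjusted p = 0.0745). Truncated ACS1 RNA was 8.70 and 9.01 CPM in wild type and 26.7 in pcf11-dNL, beside 82.7, 86.3 and 80.5 CPM of remaining RNA. YDR338C, a putative transporter gene and the facing neighbour of MRPS28, was at 10.5% and 15.5% against 37.0%. AAT2, an aspartate aminotransferase, was at 5.75% and 3.43% against 22.8% (17 of 74 reads in pcf11-dNL). MAL31, a maltose permease with close copies at other MAL loci, was at 17.7% and 16.1% against 34.2%. In each pcf11-dNL lay above both wild-type libraries, by which rule the genes were chosen. Its counting interval lay above theirs except for AAT2, where 14.9% to 33.7% in pcf11-dNL overlapped 1.98% to 15.6% in wild type of experiment 1. As the genes were picked for their distance, the gap between intervals is a description and no separate evidence.

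PGK1, of the glycolysis list, joined a lower level with more early ends. Its proximal fraction was 2.48% and 1.77% in wild type and 15.5% in pcf11-dNL (13.3% to 18.1%), with a truncated difference of 13.5 ± 0.735 points (limma adjusted p = 0.745). In CPM, remaining PGK1 RNA was 867 in wild type of experiment 1, 239.2 in experiment 2 and 153.8 in pcf11-dNL, and truncated RNA 22.1, 5.92 and 29.2.

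Proximal fractions below both wild-type libraries were largest in distance for PRM3 (45.4% and 56.7% in wild type, 31.8% in pcf11-dNL), the Ty1 gene YLR256W-A (77.9% and 79.7%, 66.4%), which has many near-identical copies and is uncertain, and MXR1, a methionine sulfoxide reductase gene (74.4% and 64.3%, 54.0%). YDR124W (44.9% and 47.3%, 35.3%), STR3, of sulfur amino acid metabolism (31.0% and 40.2%, 22.8%), and CDC16, of the anaphase-promoting complex (35.1% and 34.9%, 27.2%), completed the set. Their limma adjusted p-values were 0.423 to 1.

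With edgeR for expression and limma for the other measures, calls for a difference between the media were made for the proximal fraction and for no other measure, beside the 3 genes that DESeq2 called for expression. The pcf11-dNL effect in caffeine was larger than without it in 32 genes (0.619%) and smaller in 90 (1.74%) with limma, and 757 were under 0.05 before adjustment (14.7%), 312 larger (6.04%) and 445 smaller (8.61%). With the experiment as a block, without any one of the 4 wild-type libraries, or with edgeR on class counts, 0 genes were called.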

How the data were processed

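Poly(A) ends of total RNA (3 µg per sample) were read by Direct RNA Sequencing in 8 libraries of 6 groups, per the labels' protocols. The authors deposited estimated counts (expected counts) per gene without normalization, per the file headers, and 9.72% of them were whole within 1e-06. Further tables, 4 in all over 5933 genes, hold the average 3′ UTR length, a score in nucleotides as deposited with 40 values in 5 genes at -1, treated as missing, and the truncated and the proximal share of each gene's reads, deposited as a fraction and given here in percent. Where the proximal region ends, the aligner, the counting rules, strand and multiple placements have no statement in the labels or headers, so overlapping, facing and near-identical genes are uncertain. Per the submitters' processing notes the genome was sacCer3. Coordinates and names are those of RefSeq R64, which matched 5919 of the identifiers and missed 14.

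Counts, rounded to whole numbers, went through TMM scaling, filterByExpr, glmQLFit and glmQLFTest of edgeR 4.0.16 (R 4.3.3), and the other measures with limma 3.58.1 on the deposited values where every library had 20 counts or more. Both fits used 6 group means over all 8 libraries, with Benjamini-Hochberg adjustment over all genes tested and a threshold of 0.05, so only the wild-type pairs give residual spread. A prior count of 2 was added for log2 CPM per library. DESeq2 1.42.0 and the other alternatives are given in the closing section. The fits were tested on simulated data. Class counts behind the fractions are not given per library, so limma was kept for them and edgeR on rebuilt class counts is an alternative. Intervals are Wilson's at 95%, and a share of 0 was given the limit of 3 counts.

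Genes named are PCF11, those with the largest distance from the nearer wild-type library (10 each way for expression, 6 for each other measure, 50 counts or more), up to 6 each way called for a difference between media, members of the 4 lists of 3′ end and early termination genes, and up to 4 members of each other list. The comparison, the genes and the 36 lists were chosen with earlier results of these data known. The experiment numbers pair libraries, per the labels. As a check, the difference between experiments in wild type was correlated across 5849 genes between the media (r = 0.194, and 0.121 without URA3 and the 2-micron features).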

Additional observations from a re-analysis of the deposited data

Results flagged for a closer look

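For 12 genes the pcf11-dNL effect on the proximal fraction differed between the media by limma's test of the difference itself, and they had the largest contrasts where counts averaged 50 or more over all libraries. The effect was larger in caffeine by 6.75 percentage points for YKL068W-A, 6.55 for MLF3, 6.2 for RPN4, 5.05 for DPH2, 4.97 for SND3 and 4.34 for ERT1. It was smaller by -8.93 points for SOM1, -7.47 for OST4, -6.44 for FIP1, -6.37 for CEG1, -6.33 for SGD1 and -5.82 for CPD1. Their adjusted p-values ran from 0.0228 to 0.0486.

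RPN4 is the transcription factor of proteasome genes. Its proximal fraction was 2.89% and 3.02% in wild type and 5.28% in pcf11-dNL in caffeine, and 15.4%, 15.5% and 11.6% without it. The pcf11-dNL library was thus above wild type in one medium and below it in the other. SND3, of protein targeting to the endoplasmic reticulum, was at 1.87% and 1.69% in wild type against 6.68% in caffeine. FIP1, the poly(A) polymerase regulator, had 0 whole reads in wild type without caffeine and stood at 5.55% in pcf11-dNL, from 2.99 reads. None of the 12 calls remained with the experiment as a block, without any one of the 4 wild-type libraries or with edgeR on class counts, and the part of read number in them was not tested.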

How the results depend on the processing

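In caffeine the expression comparison gave 0 calls in every alternative except without wild-type caffeine replicate 2, and leaving out 1 library moved the count from 0 to 21. Those 21, 7 higher and 14 lower, include URA3, POL4, SIR4, CYC1, PGK1, PRM7 and CTR1. For the difference between media the count was 3 with DESeq2 and 0 to 13 without 1 library. Length and truncated fraction gave 0 calls in every alternative. With the experiment as a replicate block, the difference of PCF11 turned from -0.14 to 0.144, and proximal calls went to 0 in caffeine and 0 between media, while no other call changed under the block. The proximal count in caffeine, 2, became 1 with at least 50 counts, 44 on the logit scale, and 0 with an eBayes trend, without any 1 library, with edgeR on class counts, and with at least 100 proximal reads, an alternative chosen after seeing the data. Between media, 122 became 55 with a trend and 0 without any 1 library, on class counts and with 100 reads. The cause was not tested. Among PCF11 and the genes named by distance or by a call, PCF11 alone changed direction in these alternatives, and members of lists were not recomputed one by one. Lists with a median above 0 numbered 15, and 13 and 22 against experiments 2 and 1 alone, and those below numbered 21, 23 and 14. Depth limits the proximal fractions, where DPH2 and YCR087C-A rest on 28 and 8 reads in pcf11-dNL.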

Other observations

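Other list members lay outside both wild-type libraries without passing the test. The histone genes HTB2 (50.7 and 90.8 CPM in wild type, 119.2 in pcf11-dNL) and HTA2 (39.9 and 55.2 against 66.9) were higher. They were 2 of 8 histone genes, a share near the 24.8% of all genes, and no histone gene lay below both, beside 31.4% of all genes. The trehalose synthase subunit gene TSL1 was at 112.8 and 143.9 CPM against 219.3, while PNC1, a nicotinamidase gene of the same stress list, was at 366 and 402.6 against 274.4. The ammonium permease gene MEP2 was at 105.8 and 118.9 CPM against 160.7, and the siderophore transporter gene ARN1 at 116.1 and 108.8 against 80.3. For ergosterol synthesis, 19 of 24 genes had a higher truncated fraction than both wild-type libraries and 1 a lower one, beside 49.8% of all genes, with a median difference of 1.01 percentage points. For the iron regulon it was 11 of 14 and 1, with a median of 1.83 points.

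Wild type of experiment 1 differed from the 2 other caffeine libraries in single genes. POL4 was at 5316 CPM there against 18.5 and 30.7, and CYC1 at 2100 against 202.5 and 163.8.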
